A study of Mus musculus with 35 samples.

Results

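Deletion of Hdac2 from the medium-spiny neurons (MSNs) of mice that carry a huntingtin knock-in allele was followed in the striatum at 5 months by higher transcript levels of a set of genes with low striatal expression, led by Wdr86, the nicotinic receptor gene Chrnb4 and the class I histocompatibility gene H2-Q2, and by lower levels of many abundant transcripts of synapses and ion channels, among them Kcnq3 and Sv2b. Of all genes in the highest of 4 equal groups by level, 20.1% fell. RNA extraction date nearly followed the Hdac2 genotype. With date as a covariate 331 of the 17169 genes tested passed, few of them synapse and channel genes, Kcnq3 and Sv2b among these. The comparison covers the 11 HttQ111/+ Hdac2 KO and the 7 HttQ111/+ Hdac2 WT libraries among the 35 libraries of the series, each from the striatum of 1 mouse, and it was chosen by the genotype in the sample labels. All 18 mice carry 1 HttQ111 allele, in which an expanded CAG repeat replaces the short repeat of the mouse huntingtin gene Htt, and are recorded as homozygous for an Hdac2 allele with loxP sites around exons 2 to 4. The KO mice (Hdac2-/-) also carry the D9-Cre transgene, in which a fragment of the DARPP-32 gene Ppp1r1b drives Cre in MSNs from 5 to 6 weeks of age, and the WT mice (Hdac2+/+) lack Cre. An effect of Cre itself therefore cannot be told apart from that of the deletion, and striatal cells other than MSNs keep an intact Hdac2. The WT group held 4 males and 3 females aged 21.9 to 22.6 weeks with 110 to 140 constitutive CAG repeats, and the KO group held 8 males and 3 females aged 21.9 to 23.0 weeks with 110 to 144 repeats.

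Histone deacetylases remove acetyl groups from lysines of histones, and HDAC2, a class I enzyme, works as the catalytic subunit of the Sin3, NuRD and CoREST corepressor complexes, often beside its close paralog HDAC1. MSNs are the GABAergic projection neurons that make up most of the striatum, and they fall into a direct-pathway class with dopamine D1 receptors and an indirect-pathway class with D2 receptors. These are the neurons most affected in Huntington's disease, and expression of the mutant huntingtin knock-in allele lowers many of their identity genes.

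The counts per library that fell on genes ranged from 52160372 to 77867348, and mitochondrial genes took 7.74% to 11.5% of them. The tissue had the markers of striatum in all 18 libraries, with a summed level of 14960 to 19823 CPM (counts scaled to a common library total) over the 21 shared MSN markers in the WT group and 15296 to 19333 CPM in the KO group. WT replicate 7 stood apart from the rest. The markers of cortical projection neurons summed to 504 CPM in it, against 40.2 to 127 CPM in the other WT libraries and 50.8 to 93.0 CPM in the KO libraries, and Slc17a7, the vesicular glutamate transporter of cortical neurons, was at 347 CPM against 4.15 to 67.4 CPM in the other WT libraries. This library also had the lowest summed level of the direct-pathway markers (832 CPM, against 987 to 1119 CPM in the other WT libraries). Its part in each result below was measured by leaving it out. RNA extraction dates nearly followed the Hdac2 genotype. The WT libraries were extracted on 24 May (3), 25 May (2) and 27 May (2), and the KO libraries on 25 May (1), 26 May (3), 31 May (2) and 3 June (5), so that 25 May was the only date with both genotypes.

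Hdac2 transcript, counted over the whole gene, was only slightly lower in the KO striata. The WT libraries ranged from 95.9 to 112 CPM (median 105) and the KO libraries from 89.4 to 101 CPM (median 95.5), so the ranges overlapped. The log2 fold change of KO over WT was -0.12 ± 0.028 (SE; adjusted p = 0.00198). The adjusted p here and below comes from edgeR's quasi-likelihood test with 9 surrogate variables and Benjamini-Hochberg adjustment over the 17169 genes tested, and a gene rose or fell where it was under 0.05. The deletion removes 3 exons in 1 cell class, and the whole-gene count does not separate those exons from the rest of the transcript. Hdac1, the paralog that can take the place of HDAC2 in the same complexes, was higher in every KO library (8.63 to 11.02 CPM, median 9.37) than in any WT library (5.74 to 7.75 CPM, median 6.71), a log2 fold change of 0.49 ± 0.059 (adjusted p = 5.49e-07). In a fit with extraction date as a covariate in place of the surrogate variables, Hdac1 had a log2 fold change of 0.31 and did not pass (adjusted p = 0.0988, edgeR). Hdac11, the class IV deacetylase, fell by 0.15 on the log2 scale (adjusted p = 0.00847). Hdac5, a class IIa member, had an adjusted log2 fold change of -0.12 (adjusted p = 0.0229), but its unadjusted KO median (136 CPM) was above the WT median (132 CPM), and it had an adjusted p of 0.229 without WT replicate 7. Hdac3, Hdac4 (2 identifiers), Hdac6, Hdac7, Hdac8, Hdac9 and Hdac10 did not pass, with log2 fold changes between -0.06 and 0.12.

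Over the transcriptome, 2841 of the 17169 genes tested (16.5%) differed between the Hdac2 genotypes. Of these, 1319 rose (7.68% of the genes tested) and 1522 fell (8.86%), while the median log2 fold change over all genes was -0.0044. The risen genes changed more. Their median log2 fold change was 0.27, 260 of them rose over 1.5-fold and 102 over 2-fold, whereas the fallen genes had a median of -0.17, with 75 over 1.5-fold and 26 over 2-fold. With extraction date as a covariate 331 of the 17169 genes tested passed (210 rose and 121 fell), of which 288 were among the 2841. Estimates could be less precise in that fit: the SE for Htt was 0.094, against 0.036 with surrogate variables. With so few passes among all genes, a list below without a pass in that fit is not set apart from genes in general. Of the 2841 genes, 175 had a log2 fold change of the other sign in that fit, none of them past the threshold. Without WT replicate 7, 3041 genes passed, 2675 of them from the first set. Whether extraction date had a part in the genes that no longer passed cannot be told apart from the genotype.

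**Figure D1:**
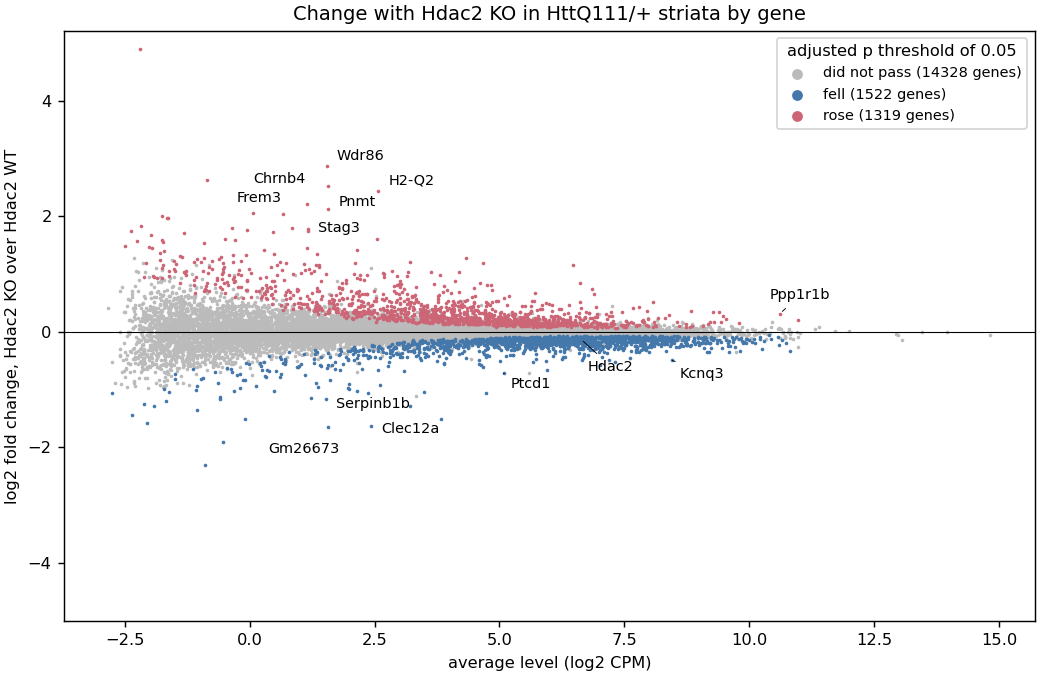
Each point is 1 of the 17169 genes, placed by its average level (log2 CPM) on the horizontal axis and its log2 fold change of HttQ111/+ Hdac2 KO over WT on the vertical axis. The 1319 risen genes reach changes over 2-fold mostly at low levels, and the 1522 fallen genes lie close to 0 and at higher levels.

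The direction of change went with the level of the gene. The risen genes had a median of 15.9 CPM in the WT group, near that of all genes tested (16.4 CPM), and the fallen genes a median of 72.3 CPM. Genes were divided by mean level into 4 groups of equal size. In the highest group (over 53.4 CPM), 6.48% rose and 20.1% fell, and in the lowest group (under 3.20 CPM), 5.29% rose and 1.96% fell. Few reads limit the calls among low genes. Gene span followed the same order less steeply: in the highest of 4 equal groups (over 51.7 kb), 8.69% rose and 12.98% fell, and in the lowest (under 6.82 kb), 5.24% rose and 4.92% fell. Of the 195 genes tested that span over 500 kb, 13 rose and 42 fell, with a median log2 fold change of -0.03, or 4 and 3 with extraction date as a covariate. The risen genes were spread over all chromosomes, from 5.76% of the genes tested on chromosome 19 to 11.2% on chromosome 18, where the clustered protocadherin genes lie.

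The largest rises were in genes nearly silent in the WT striatum. Wdr86 (chr5:24711738-24730680), which encodes a WD-repeat protein, had 0.321 to 0.830 CPM (median 0.423) in the 7 WT libraries and 1.99 to 6.59 CPM (median 4.22) in the 11 KO libraries. Its lowest KO library was above its highest WT library, and the fitted change was 7.31-fold (log2 fold change 2.87 ± 0.20, adjusted p = 4.33e-11). Chrnb4 (chr9:55028156-55048544), the beta 4 subunit of nicotinic acetylcholine receptors, had 0.406 to 1.46 CPM (median 0.964) in WT and 3.48 to 9.49 CPM (median 4.52) in KO. No library of one group entered the range of the other, and the change was 5.78-fold (log2 fold change 2.53 ± 0.23, adjusted p = 2.66e-09). H2-Q2 (chr17:35342242-35346762), a non-classical class I histocompatibility gene, had 0.942 to 1.85 CPM (median 1.46) in WT and 4.93 to 11.98 CPM (median 8.84) in KO, again without overlap (5.44-fold, log2 fold change 2.44 ± 0.17, adjusted p = 4.33e-11). H2-Q2 has near-identical copies in its locus, and the authors counted unique alignments, so its level is uncertain.

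The sequences upstream of these 3 genes, and of 3 of the genes with the largest falls described next, are shown because a deacetylase acts on the chromatin at promoters and these genes are among the largest rises and falls with an entry in the promoter table. Each is the run of 250 bases before the annotated start, read 5′ to 3′ on the gene's strand from the promoter table of RefSeq (GRCm38.p6), with CG dinucleotides in capitals.
Wdr86: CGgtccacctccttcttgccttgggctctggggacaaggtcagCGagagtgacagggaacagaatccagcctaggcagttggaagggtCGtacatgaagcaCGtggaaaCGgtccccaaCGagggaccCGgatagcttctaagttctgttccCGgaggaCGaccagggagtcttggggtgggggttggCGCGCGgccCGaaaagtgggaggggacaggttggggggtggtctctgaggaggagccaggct
Chrnb4: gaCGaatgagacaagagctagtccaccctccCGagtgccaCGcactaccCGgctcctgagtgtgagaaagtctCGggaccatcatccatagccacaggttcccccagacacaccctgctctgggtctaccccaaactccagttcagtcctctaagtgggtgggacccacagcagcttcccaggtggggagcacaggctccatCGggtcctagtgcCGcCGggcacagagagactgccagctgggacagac
H2-Q2: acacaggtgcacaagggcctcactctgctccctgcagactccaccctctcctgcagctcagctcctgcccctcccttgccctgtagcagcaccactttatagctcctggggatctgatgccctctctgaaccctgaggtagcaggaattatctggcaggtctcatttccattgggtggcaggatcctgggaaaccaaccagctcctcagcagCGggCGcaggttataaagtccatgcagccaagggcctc
Clec12a: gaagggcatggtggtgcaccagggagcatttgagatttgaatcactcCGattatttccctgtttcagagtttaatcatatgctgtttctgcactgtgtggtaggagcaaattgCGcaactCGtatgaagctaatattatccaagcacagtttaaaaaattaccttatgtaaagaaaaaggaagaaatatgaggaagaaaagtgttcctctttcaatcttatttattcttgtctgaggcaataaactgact
Serpinb1b: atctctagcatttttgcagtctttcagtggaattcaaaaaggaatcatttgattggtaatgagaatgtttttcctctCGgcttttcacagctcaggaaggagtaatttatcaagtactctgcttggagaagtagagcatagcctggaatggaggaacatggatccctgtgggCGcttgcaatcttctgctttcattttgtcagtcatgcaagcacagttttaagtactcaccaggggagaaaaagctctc
Ackr2: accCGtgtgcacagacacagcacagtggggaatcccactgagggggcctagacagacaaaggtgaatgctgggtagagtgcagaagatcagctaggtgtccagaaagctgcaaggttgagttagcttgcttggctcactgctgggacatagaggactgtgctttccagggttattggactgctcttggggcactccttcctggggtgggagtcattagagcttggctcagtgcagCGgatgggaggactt
The windows lie at chr5:24730681-24730930 (Wdr86, minus strand), chr9:55048545-55048794 (Chrnb4, minus), chr17:35342057-35342306 (H2-Q2, plus), chr6:129349994-129350243 (Clec12a, plus), chr13:33083853-33084102 (Serpinb1b, plus) and chr9:121898105-121898354 (Ackr2, plus). The RefSeq starts of Clec12a and H2-Q2 lie inside the longer intervals that the count table gives these genes. The windows hold 13 CG dinucleotides in Wdr86, 8 in Chrnb4, 2 in H2-Q2, 3 in Clec12a, 2 in Serpinb1b and 2 in Ackr2. Of the 27025 windows of the table, 91.64% hold at least 1. A promoter entry was matched for 67.5% of the genes tested, 70.7% of the risen and 71.6% of the fallen genes, which is under 80%, so a comparison of promoter composition between these sets is void and none is given.

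Frem3, an extracellular matrix protein of basement membranes, had 0.160 to 1.26 CPM in WT and 2.39 to 4.31 CPM in KO (log2 fold change 2.20 ± 0.26, adjusted p = 3.36e-07). Pnmt, the enzyme that converts noradrenaline to adrenaline, had 0.441 to 1.12 CPM in WT and 2.09 to 5.21 CPM in KO (log2 fold change 2.12 ± 0.19, adjusted p = 1.50e-09). Stag3, a cohesin subunit of meiotic chromosomes, had 0.561 to 1.01 CPM in WT and 1.70 to 4.52 CPM in KO (log2 fold change 1.77 ± 0.14, adjusted p = 2.55e-10). These genes are known for tissues other than adult striatum, and each went from a level near or below 1 CPM to a few CPM. Tcfl5, a basic helix-loop-helix factor best known from testis, rose by a log2 fold change of 1.45 (adjusted p = 4.26e-06), Nlrp10, a NOD-like receptor, by 1.41 (adjusted p = 1.34e-09), and Myo5c, an unconventional myosin of epithelia, by 1.21 (adjusted p = 1.38e-09). The remaining genes among the 12 largest rises with non-overlapping libraries are noncoding and lie opposite other genes: Gm13205 (1.74, opposite Casz1), 4833422C13Rik (1.19, opposite Acot12) and Gm26794 (1.17, opposite Kcnj3). Whether strand was used in the counting is not given in the sources used here. Few reads of Xist were counted for the opposite gene Tsix: in 6 HttQ111/+ females they had 102834 to 182622 and 24 to 132 counts. The separation of reads within the pairs named here was not tested. All 12 passed with extraction date as a covariate and with each of the 18 libraries left out in turn.

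The largest falls were in Clec12a and in a few other genes of low level. Clec12a (chr6:129342691-129364416), an inhibitory C-type lectin receptor known from myeloid cells, had 4.63 to 10.5 CPM (median 9.23) in WT and 1.81 to 4.47 CPM (median 2.89) in KO. The lowest WT value was that of WT replicate 7, the others lying between 8.02 and 10.5 CPM, and the groups did not overlap (log2 fold change -1.64 ± 0.12, adjusted p = 5.84e-11). The fitted level fell by 67.9%. Serpinb1b, a serine protease inhibitor, had 2.61 to 5.19 CPM in WT and 1.26 to 2.09 CPM in KO (log2 fold change -1.17 ± 0.13, adjusted p = 7.02e-08). Ackr2, a decoy receptor that takes up chemokines, had 4.49 to 7.14 CPM in WT and 1.68 to 4.46 CPM in KO (log2 fold change -0.98 ± 0.11, adjusted p = 1.53e-07), its highest KO library lying just under the lowest WT library. Stc1, a secreted glycoprotein of calcium and phosphate balance, had 6.80 to 9.71 CPM in WT and 3.41 to 5.79 CPM in KO (log2 fold change -0.93 ± 0.091, adjusted p = 1.27e-08).

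Among transcripts of higher level, Ptcd1, a mitochondrial RNA-binding protein, had 36.9 to 51.2 CPM (median 41.0) in WT and 23.0 to 29.7 CPM (median 25.3) in KO, with no overlap (log2 fold change -0.72 ± 0.051, adjusted p = 4.33e-11). It overlaps Bud31 on the other strand. Kcnq3, a subunit of the potassium channels that carry the M-current, was abundant, with 378 to 481 CPM (median 407) in WT and 240 to 320 CPM (median 304) in KO. The groups were well apart, and the fitted level fell by 29.0% (log2 fold change -0.49 ± 0.042, adjusted p = 1.02e-09). The other falls by the same rule were Gm26673 (-1.64, opposite Kcna6), Tspear (-1.15), Tchh (-0.66), the growth factor Bmp2 (-0.65), the GTPase-activating gene Arhgap27 (-0.61) and A830092H15Rik (-0.57). All 12 passed with each of the 18 libraries left out, and 6 of them (Clec12a, Tspear, Ackr2, Stc1, Ptcd1 and Kcnq3) passed with extraction date as a covariate. These largest changes belong to 138 genes (0.804% of those tested) whose KO libraries all lay above the WT libraries and 109 (0.635%) whose KO libraries all lay below.

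**Figure D2:**
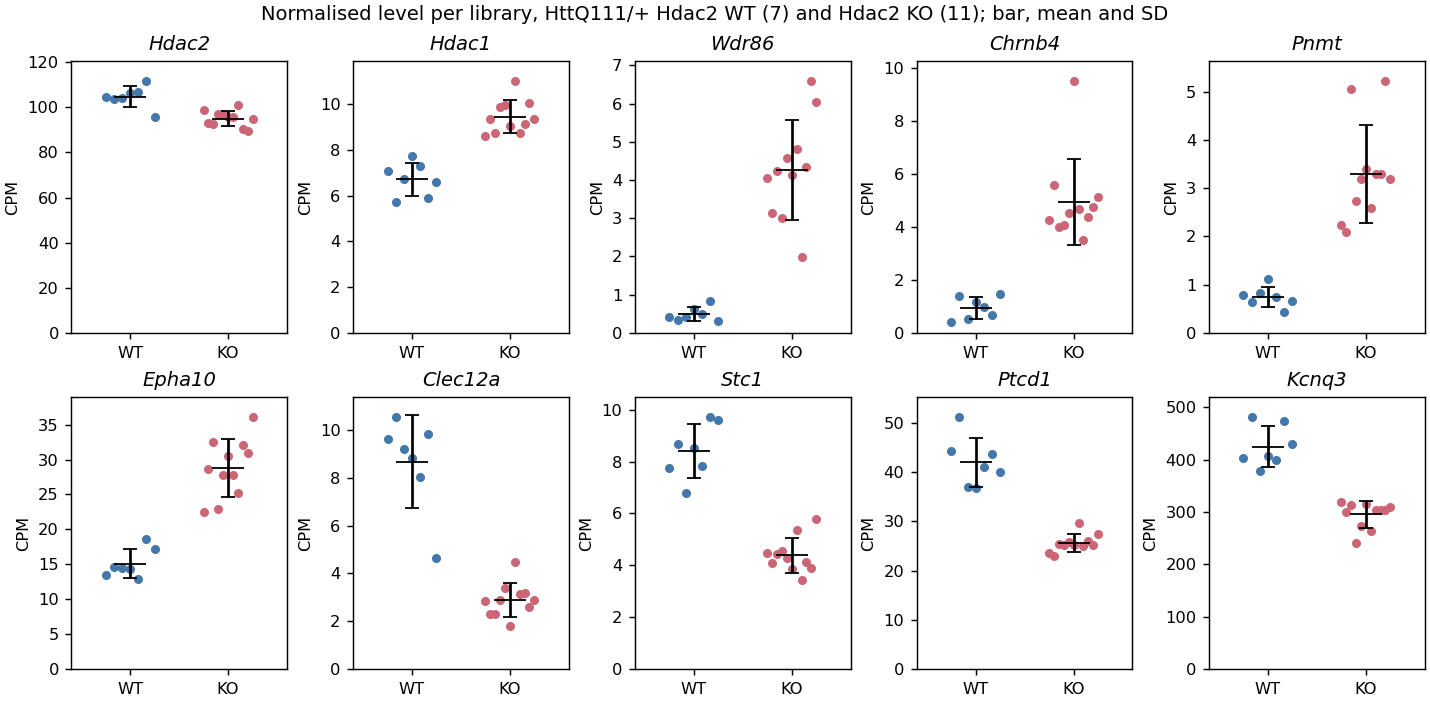
Points are the 7 HttQ111/+ Hdac2 WT and 11 HttQ111/+ Hdac2 KO libraries, with CPM on the vertical axis from 0, and bars give the mean and SD. Hdac1, Wdr86, Chrnb4, Pnmt and Epha10 are higher and Clec12a, Stc1, Ptcd1 and Kcnq3 lower in every KO library, whereas the Hdac2 ranges overlap.

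Genes of the nicotinic receptor family moved in both directions. Of 7 tested subunits 4 rose and 2 fell. Beside Chrnb4, the 2 genes that lie in a cluster with it rose: Chrna5, with 0.212 to 1.22 CPM in WT and 0.529 to 1.70 CPM in KO (log2 fold change 1.58, adjusted p = 7.61e-06), and Chrna3, with 0.489 to 1.06 and 0.908 to 2.34 CPM (0.70, adjusted p = 0.0156). Chrna7, the subunit of the homomeric alpha 7 receptor, fell from a median of 11.3 to 8.41 CPM (log2 fold change -0.40, adjusted p = 0.0021). With extraction date as a covariate 2 subunits rose and none fell, and Chrnb4 kept a log2 fold change of 2.06. Among 11 serotonin receptor genes Htr4 rose (0.32) and Htr1f (-0.61) and Htr2c (-0.43), a target of many psychoactive drugs, fell, Htr2c from a median of 113 to 71.6 CPM. Htr4 had an adjusted p of 0.0877 without WT replicate 7, and no serotonin receptor gene passed with extraction date as a covariate.

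Of 33 neuropeptides and their receptors 6 rose and 3 fell, or 1 and 1 with extraction date as a covariate. The neurotensin gene Nts rose (log2 fold change 0.96, adjusted p = 0.00324), with 4.55 to 9.52 CPM in WT and a wide range of 4.23 to 28.6 CPM in KO, and Npbwr1, a receptor of neuropeptides B and W, fell by 0.97 on the log2 scale (adjusted p = 0.00265). Tac1, which encodes substance P of direct-pathway MSNs, rose from a median of 313 to 359 CPM (log2 fold change 0.29, adjusted p = 1.52e-05). The somatostatin receptor genes Sstr2 (0.57) and Sstr3 (0.64) also rose in the fit, but their highest level was in WT replicate 7 (20.8 and 9.72 CPM), and without surrogate variables their log2 fold changes were -0.45 and -0.55. Among 9 endocannabinoid genes Dagla, the main synthase of 2-arachidonoylglycerol, fell in every KO library (71.3 to 90.5 CPM, against 93.8 to 131 CPM in WT; log2 fold change -0.36, adjusted p = 7.73e-09). Abhd6, a hydrolase of the same lipid, fell by 0.17, and Faah, the hydrolase of anandamide, had a fitted log2 fold change of 0.42 with the group medians at 23.1 (WT) and 23.0 CPM (KO). No endocannabinoid gene passed with extraction date as a covariate, where 331 of all 17169 genes tested did.

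Synaptic genes fell more often than they rose, as did abundant genes in general. Of 25 glutamate receptor genes 9 fell and 3 rose (median log2 fold change -0.06). The metabotropic receptors moved apart: Grm8, of group III, rose from a median of 11.4 to 15.8 CPM (0.61, adjusted p = 0.000263), while Grm5 (-0.25, adjusted p = 0.0107) and Grm4 (-0.24, adjusted p = 0.000283) fell. Of 25 postsynaptic scaffold and kinase genes 8 fell and 1 rose (median -0.04). Camk2b, a subunit of the calcium/calmodulin kinase of spines, was lower in every KO library (985 to 1193 CPM) than in any WT library (1220 to 1454 CPM; log2 fold change -0.30, adjusted p = 4.86e-06), and Ppp1r9a (-0.34), Dlgap2 (-0.31) and Camk2a (-0.26) fell as well, Camk2a being highest in WT replicate 7. With extraction date as a covariate 1 glutamate receptor gene rose and 1 scaffold gene fell.

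Of 50 genes of synaptic vesicles and release, 13 fell and 8 rose, or 3 and 1 with extraction date as a covariate. Sv2b, a vesicle glycoprotein, had 223 to 304 CPM in WT and 135 to 196 CPM in KO, without overlap (log2 fold change -0.46, adjusted p = 1.15e-07), and passed with extraction date as a covariate (-0.67). On 25 May, the only date with both genotypes, the KO library had 178 CPM. The 2 WT libraries of that date had 261 and 304 CPM, the higher being WT replicate 7. In that KO library 67.4% of the 1522 fallen genes lay below both WT libraries and 7.88% above. Of the 1319 risen genes 66.1% lay above and 7.73% below, and of genes not called 33.0% and 32.6%. Grm5 and Dlgap2 were above both, at 262 and 85.9 CPM against WT levels up to 246 and 81.3 CPM. These libraries also entered the fit that gave the calls. Syt2, a fast calcium sensor, fell by 0.47 (adjusted p = 7.55e-05), whereas Rab3b, a vesicle GTPase, was higher in every KO library (0.45, adjusted p = 3.38e-05). Of 15 GABA-A receptor subunits 4 fell and 2 rose, with Gabrb2 (-0.40) and the extrasynaptic subunit Gabrd (-0.35) falling, and Gabra5 (0.47) and Gabra3 (0.39) rising. For Gabra3 the highest WT library was again replicate 7, at 91.3 CPM against a KO range of 54.1 to 69.8 CPM. No GABA-A receptor subunit passed in edgeR with extraction date as a covariate.

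Potassium channel genes gave 15 falls and 8 rises among 80 tested, or 4 falls and 1 rise with extraction date as a covariate. The fallen share was 18.8% and the risen share 10.0%, where 8.86% and 7.68% of all genes tested fell and rose. Among genes in the highest of 4 level groups 20.1% fell. Kcne3, an accessory subunit, had a median of 0.124 CPM in WT and 0.452 CPM in KO. It is counted among the 8 rises but entered the test through its KO counts, so it is no support for that count. No fold is given for it. Kcnt2 (0.55) and Kcnj3, which encodes GIRK1 (0.53), rose with their highest level in WT replicate 7, so that their ranges overlapped. Of 35 calcium and sodium channel genes 10 fell (28.6%) and 4 rose (11.4%), and with extraction date as a covariate none fell and 1 rose. Scn11a (0.84) rose at levels under 1 CPM, and Cacna1e, the R-type calcium channel, and Cacna2d1, an auxiliary subunit, fell (-0.27 and -0.21).

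Guidance and adhesion genes rose and fell in similar numbers, except for the clustered protocadherins. Called shares were 32.4% of axon guidance genes, 20.5% of cadherins and 54.2% of clustered protocadherins, where 16.5% of all genes tested were called. Of 71 axon guidance genes 11 rose and 12 fell, among them Epha10, an ephrin receptor without kinase activity, which rose from a median of 14.4 to 28.6 CPM without overlap (log2 fold change 0.85, adjusted p = 7.73e-09), Sema4g (0.37), and the receptors Unc5a (-0.36) and Plxnd1 (-0.35), which fell. Of the guidance genes 1 rose and 1 fell with extraction date as a covariate. Of 39 cadherins and unclustered protocadherins 4 rose and 4 fell, with Dchs1 (0.49) and Cdh18 (0.46) rising and Cdh7 (-0.58) and Cdh23 (-0.59) falling, although Cdh23 had an adjusted p of 0.0787 without WT replicate 7, and with extraction date as a covariate 2 of the 39 rose and none fell. Of 24 clustered protocadherins, cell surface proteins that give neurons an identity, 11 rose and 2 fell, with a median log2 fold change of 0.32 where that of all genes was -0.0044. Pcdhb3 rose from a median of 6.87 to 9.31 CPM (log2 fold change 1.03, adjusted p = 4.46e-08), Pcdhb2 by 0.78, Pcdhb7 by 0.67 and Pcdhb5 by 0.65. Members of this family are similar in sequence and the ranges of the groups overlapped for each of these 4 genes. The fitted changes are adjusted for the surrogate variables and the CPM levels are not. The summed level of the family was not higher in KO, with medians of 1234 CPM in WT and 1209 CPM in KO. With extraction date as a covariate no clustered protocadherin passed (median 0.23), and without covariates 6 rose (median 0.16).

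Genes of epithelial junctions, keratins and matrix also rose more than they fell. Of 29 tested epithelial genes (of 95 listed) 11 rose and 3 fell, with a median log2 fold change of 0.34. Dmkn, Vill, Sbsn and Ptprh were put on this list by name, and the paper reports each as altered by Hdac2 KO in HttQ111 mice. Those are the same mice, so changes in these genes were known beforehand and are no support for the list. Dmkn, a secreted protein of epidermis, was higher in every KO library (21.7 to 35.6 CPM) than in any WT library (13.2 to 19.9 CPM; log2 fold change 0.80, adjusted p = 1.07e-08), and the desmosomal genes Dsc2 (1.09) and Dsp (1.06) and the villin-like Vill (0.99) rose with overlapping ranges. With extraction date as a covariate 3 of the 29 rose, and Dsc2 had a log2 fold change of -0.05. Of 69 collagen, laminin and related matrix genes 9 rose and 3 fell, including Frem3 and the matricellular protein Thbs1 (1.13, adjusted p = 0.000185), while Col6a4 fell (-1.04, adjusted p = 0.0375) with a KO range of 1.85 to 19.8 CPM that enclosed the WT range. Col6a6 had an adjusted p of 0.0413 at levels under 1 CPM. Of 22 integrins 3 rose and 1 fell, led by Itgb7 (1.11), Itga11 (0.64) and Itga3 (0.36). In the fit with extraction date 6 matrix genes and 1 integrin gene rose and none fell.

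Of 40 histocompatibility and complement genes 5 rose and none fell (8 higher and 0 lower at an unadjusted p under 0.05 in edgeR, and 6 rises and 0 falls in DESeq2). The called share was 12.5%, all of it rises, where 16.5% of all genes tested were called and 7.68% rose. The class I light chain B2m rose from a median of 71.4 to 87.6 CPM (log2 fold change 0.33, adjusted p = 0.0001), and H2-T22 (0.44) and H2-T10 (0.67) were higher in every KO library, as was H2-Q2. Of these genes 3 rose with extraction date as a covariate. Psmb10, an immunoproteasome subunit (0.43), and Psme1, of the proteasome activator (0.23), were the 2 genes that rose among 42 proteasome genes. Of 13 C-type lectins tested Clec12a fell and Clec2l rose (0.36), a called share of 15.4%, near that of all genes tested.

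Chromatin genes other than Hdac1 held small changes. Called shares were 22.2% for class I HDAC complexes, 26.7% for other deacetylases, 15.4% for acetyltransferases, 11.1% for Polycomb genes and 12.1% for homeobox genes. Of all genes tested 16.5% were called. Of 45 genes of class I HDACs and their complexes 5 rose and 5 fell, among them the NuRD genes Chd3 (0.35) and Mta3 (0.27), Rest (0.34), a repressor of neuronal genes that recruits CoREST, and Brms1 (-0.33), a Sin3 complex member. None of the 45 passed with extraction date as a covariate, and none of the other deacetylases, acetyltransferases or Polycomb genes below did. Among 15 other deacetylases and sirtuins the mitochondrial Sirt3 rose (0.16) and Sirt5 fell (-0.18). Of 13 acetyltransferases Crebbp (-0.17) and Kat6b (-0.13) fell, and Ezh1 was the 1 gene of 9 in Polycomb repressive complex 2 that fell (-0.11), lower in every KO library (69.8 to 78.5 CPM, against 79.7 to 87.0 CPM). Only 33 of 125 homeobox developmental regulators had enough counts to be tested, and 2 rose and 2 fell. Phox2a, a determinant of noradrenergic neurons, was at 0 to 0.0401 CPM in WT and 0.148 to 0.348 CPM in KO. It is counted among the 2 rises but entered the test through its KO counts, so it is no support for that count. No fold is given for it. Gbx1 (-0.75) and Pou3f1 (-0.52) passed too.

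Of 38 genes of cAMP and DARPP-32 signalling 2 rose and 5 fell, a called share of 18.4% where that of all genes tested was 16.5%, and with extraction date as a covariate 1 rose and none fell. They included Ppp1r1a, which encodes protein phosphatase inhibitor 1, which rose (0.32), and Cdk5r1 (-0.27), Ptpn5 (-0.25) and Adcy9 (-0.24), which fell. Of 19 RGS genes, which shorten G protein signals, Rgs19 rose without overlap (8.03 to 13.7 CPM in WT, 14.4 to 20.2 CPM in KO; log2 fold change 0.63, adjusted p = 6.49e-07), Rgs16 rose (0.69), and Rgs14 fell from a median of 58.9 to 46.2 CPM (-0.67, adjusted p = 9.68e-07), with 4 falls in all. In the fit with extraction date 1 RGS gene rose and none fell. Rgs13 fell too, at levels under 1 CPM. It is counted among the 4 falls but entered the test through its WT counts, so it is no support for that count. No fold is given for it. Of 29 striatal transcription factors 1 rose, Ikzf2 (0.33), and 4 fell, among them Rarb (-0.24), Mef2d (-0.19) and Mef2c (-0.14). The called share was 17.2%, near the 16.5% of all genes tested, and with extraction date as a covariate none rose and 1 fell. None of the 21 immediate-early genes passed in edgeR or DESeq2, 4 were higher at an unadjusted p under 0.05, and their median log2 fold change was 0.12.

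Of 14 genes tested within 250 kb of Ppp1r1b on chromosome 11, 6 rose, 1 fell and 7 did not pass. Of the 14, 3 rose and none fell with extraction date as a covariate. Ppp1r1b itself had 1014 to 1382 CPM in WT and 1285 to 1798 CPM in KO, a rise of 24.0% (log2 fold change 0.31 ± 0.050, adjusted p = 3.48e-05), and passed with extraction date as a covariate. Its ranges overlapped over all libraries but not within any of the 3 series of mouse IDs. Pnmt, Ikzf3 (0.55), the growth factor receptor gene Erbb2 (0.53), the adaptor gene Grb7 (0.35) and Mien1 (0.26, adjusted p = 6.61e-07) rose, and Med1 fell (-0.08, adjusted p = 0.0281, and 0.0512 without WT replicate 7). The Cre transgene holds a fragment of Ppp1r1b, and reads from sequence that it shares with the endogenous locus cannot be told apart.

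Metabolic and proteostasis lists held small falls. Of 91 nuclear genes of oxidative phosphorylation 17 fell and 2 rose (median log2 fold change -0.05). The fallen share was 18.7%, where 8.86% of all genes tested and 20.1% of those in the highest of 4 level groups fell. Cox5b (-0.26), Ndufs7 (-0.20), Ndufs3 (-0.16) and the assembly factor Ndufaf3 (-0.15) were among the falls. None of the 91 passed once extraction date was a covariate. None of the 12 mitochondrially encoded genes passed in edgeR or DESeq2, and none had an unadjusted p under 0.05. Of 23 genes of cholesterol synthesis and transport 5 fell and 1 rose, among the falls the regulator Srebf2 (-0.25), Hsd17b7 (-0.25) and Acat2 (-0.18), and with extraction date as a covariate 1 fell. Of 19 circadian clock genes 4 fell and none rose (5 lower and 0 higher at an unadjusted p under 0.05 in edgeR, 4 falls and 0 rises in DESeq2): Per2 (-0.46), Tef (-0.27), Cry2 (-0.25) and Hlf (-0.22). Cry2 had 154 to 172 CPM in WT and 122 to 147 CPM in KO, without overlap, and passed with extraction date as a covariate (-0.41), as did Hlf, whereas Per2 had an adjusted p of 0.099 without WT replicate 7. The time of day of tissue collection was not analysed here. Of 64 heat shock and DnaJ genes 11 fell (17.2%) and 4 rose (6.25%), the rises including Dnajb5 (0.30) and Dnajb11 (0.21), and none passed with extraction date as a covariate. Of 78 cytosolic ribosomal protein genes only Rpl24 passed (-0.20). Of 20 cell cycle inhibitors and cyclins Cdkn2d rose (0.15) and Ccne2 (-0.37) and Cdkn1b (-0.12) fell, and of 7 neurotrophin genes 1 passed, the sorting receptor gene Sort1 (-0.17).

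Huntingtin and 14 genes of its interactors gave 5 rises and 5 falls, none of which passed with extraction date as a covariate. Htt had 182 to 190 CPM in WT and 119 to 184 CPM in KO (log2 fold change -0.17 ± 0.036, adjusted p = 0.000998), with a log2 fold change of -0.13 that did not pass (adjusted p = 0.57) with extraction date as a covariate. Hap1, a trafficking adaptor that binds huntingtin, rose from a median of 99.9 to 137 CPM (log2 fold change 0.42, adjusted p = 0.000232), and Rasd2, the striatal protein Rhes, fell (-0.21, adjusted p = 0.00314). Among 20 genes of mismatch and related repair, a pathway that acts on the CAG repeat, Msh3 (-0.16, adjusted p = 0.021) and Ercc6 (-0.13, adjusted p = 0.00936) fell. This is a called share of 10%, under the 16.5% of all genes tested. Of 27 imprinted genes 4 rose and 4 fell, including the neighbours Magel2 (0.67) and Ndn (0.51), which rose, and Peg10 (-0.44), which fell. No repair gene and no imprinted gene passed with extraction date as a covariate.

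**Figure D3:**
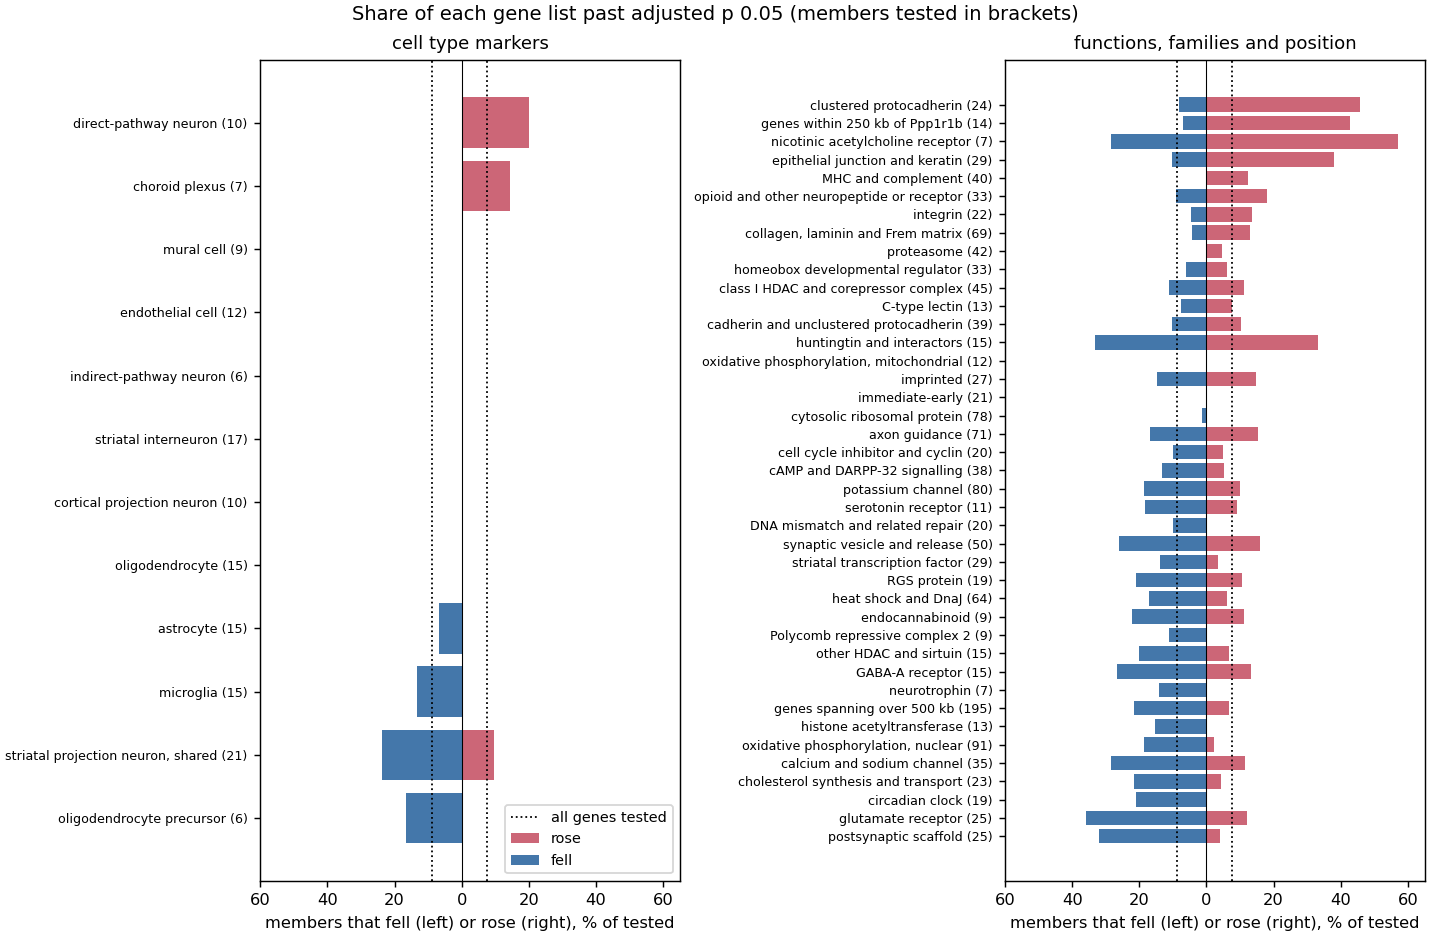
Each bar is a gene list, with the percent of its tested members that rose to the right of 0 and that fell to the left, and dotted lines mark the 7.68% and 8.86% of all genes tested. Clustered protocadherins, epithelial genes and genes near Ppp1r1b extend to the right, glutamate receptors and postsynaptic scaffolds to the left, and most lists of glial and vascular markers hold few or no calls.

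Markers of striatal cell types were counted in the same way. In bulk tissue a lower share of a cell type and less RNA per cell cannot be told apart. Of 21 markers shared by both MSN classes 5 fell and 2 rose (median log2 fold change -0.08), a called share of 33.3% where that of all genes tested was 16.5%. In the fit with extraction date 1 rose and none fell, and without covariates 2 rose and 1 fell. Ptpn5 and Rasd2, which fell with surrogate variables, had adjusted p values of 0.253 and 0.15 without covariates (edgeR). Of 10 direct-pathway markers 2 rose and none fell, and none passed with extraction date as a covariate. They had a summed level of 832 to 1119 CPM in WT and 1023 to 1275 CPM in KO, the lowest value being that of WT replicate 7. None of 6 indirect-pathway markers and none of 17 interneuron markers passed.

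No marker of oligodendrocytes (15 genes), endothelium (12), mural cells (9), ependyma (4) or blood (5) passed either. Over these 5 lists, both neuronal lists without a call and the cortical projection neurons, 6 of 78 genes had an unadjusted p under 0.05 in edgeR and 1 gene passed in DESeq2. Among 15 microglial markers Fcrls (-0.56, adjusted p = 0.00327) and Itgam (-0.19, adjusted p = 0.0182) fell, but their log2 fold changes with extraction date as a covariate were 0.58 and 0.40, and the summed microglial level was 764 to 941 CPM in WT and 769 to 1002 CPM in KO. Among 15 astrocyte markers 1 fell, the glutamate transporter gene Slc1a2 (-0.18, adjusted p = 0.024), which had an adjusted p of 0.0612 without WT replicate 7, and among 6 markers of oligodendrocyte precursors Tnr fell (-0.19). None of the 10 cortical projection neuron markers passed in the fit with surrogate variables, whereas 4 were lower in KO without covariates, where WT replicate 7 enters unadjusted. Choroid plexus markers summed to 21.7 to 105 CPM in WT and 23.9 to 150 CPM in KO, and 1 of 7 rose, Clic6 (0.37). Its WT range was 9.96 to 24.3 CPM and its KO range 17.5 to 31.5 CPM, and the part of choroid plexus in it was not tested.

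**Figure D4:**
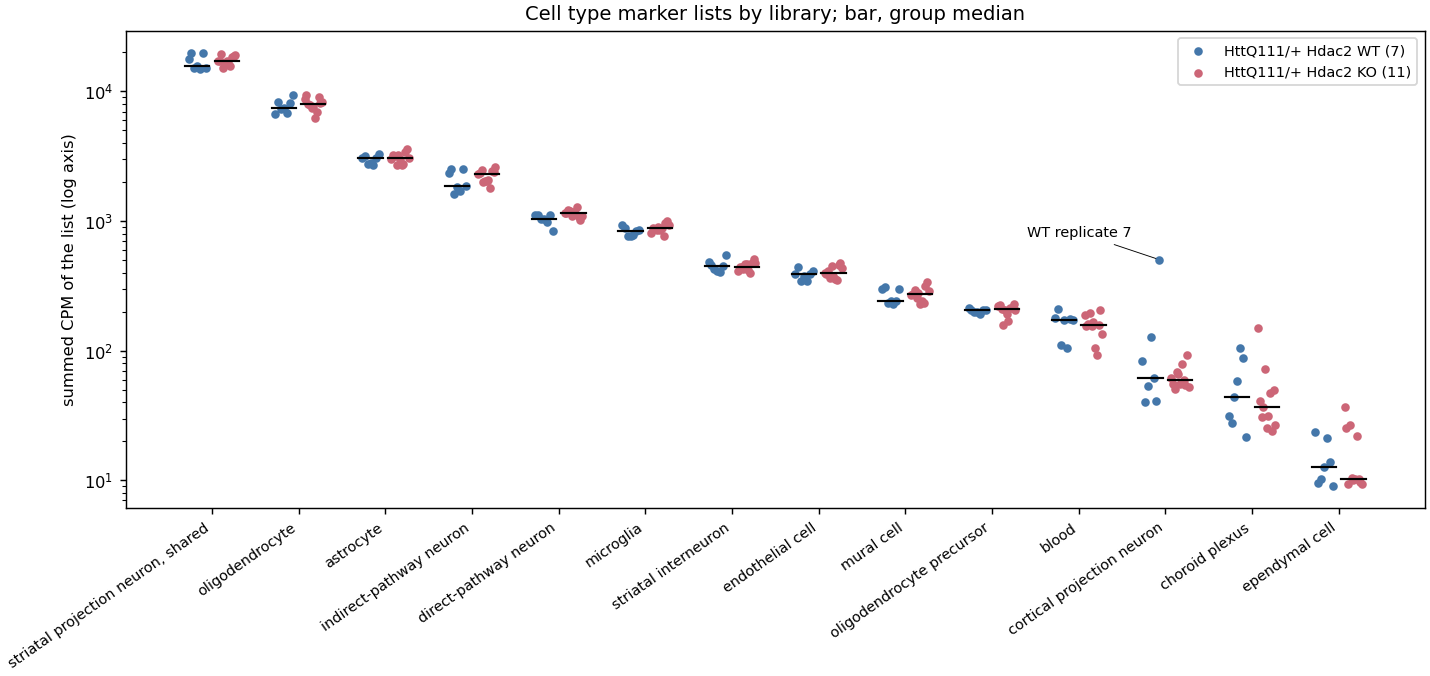
Points are the libraries of both HttQ111/+ groups, with the summed CPM of each cell type's markers on a log axis and bars at the group medians. The groups overlap for every list, and WT replicate 7 lies alone at 504 CPM for the cortical markers.

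The same deletion in mice without the HttQ111 allele was measured in the other 17 libraries, 9 Htt+/+ Hdac2 KO and 8 Htt+/+ Hdac2 WT, which entered the same model. There 3056 of 17126 genes tested (17.8%) passed. Of the genes that rose in HttQ111/+ striata, 1311 were tested in Htt+/+ striata, where 939 (71.6%) also rose, and of the genes that fell, 1517 were tested and 1013 (66.8%) also fell. None passed in the opposite direction. Extraction dates nearly followed the Hdac2 genotype in these 17 libraries too, with 27 May the only date of both genotypes. With extraction date as a covariate 822 genes passed there. A part of date in the changes shared by both backgrounds cannot be told apart from the genotype. Wdr86 had log2 fold changes of 2.87 in HttQ111/+ and 2.95 in Htt+/+ striata, Chrnb4 2.53 and 2.39, Hdac1 0.49 and 0.54, Clec12a -1.64 and -1.88, and Kcnq3 -0.49 and -0.51. Clustered protocadherins gave 11 rises and 2 falls in HttQ111/+ and 17 rises and no falls in Htt+/+, and nuclear oxidative phosphorylation 2 and 17 against 2 and 21.

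Only Fibcd1 passed the test of a difference between both effects, 1 of 17346 genes (0.00577%), while 976 had an unadjusted p under 0.05 in that test. Fibcd1 (chr2:31813290-31846005), a membrane receptor for acetylated sugars such as chitin, had 13.6 to 21.5 CPM (median 15.8) in HttQ111/+ Hdac2 WT and 9.82 to 14.6 CPM (median 11.9) in HttQ111/+ Hdac2 KO, ranges that overlapped. Its log2 fold change was -0.54 ± 0.051 (adjusted p = 7.56e-09), against -0.98 in Htt+/+ striata, a difference of 0.43 ± 0.069 (adjusted p = 0.0152, edgeR). No gene passed this test without covariates, or with sex or extraction date instead of surrogate variables, where 1145, 1020 and 1050 genes had an unadjusted p under 0.05, and 3 passed in DESeq2. For Frem3 (2.20 in HttQ111/+, 3.66 in Htt+/+) and Pnmt (2.12 and 3.03) the effects lay further apart than for Wdr86, and neither difference passed (adjusted p = 0.549 for both, edgeR).

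**Figure D5:**
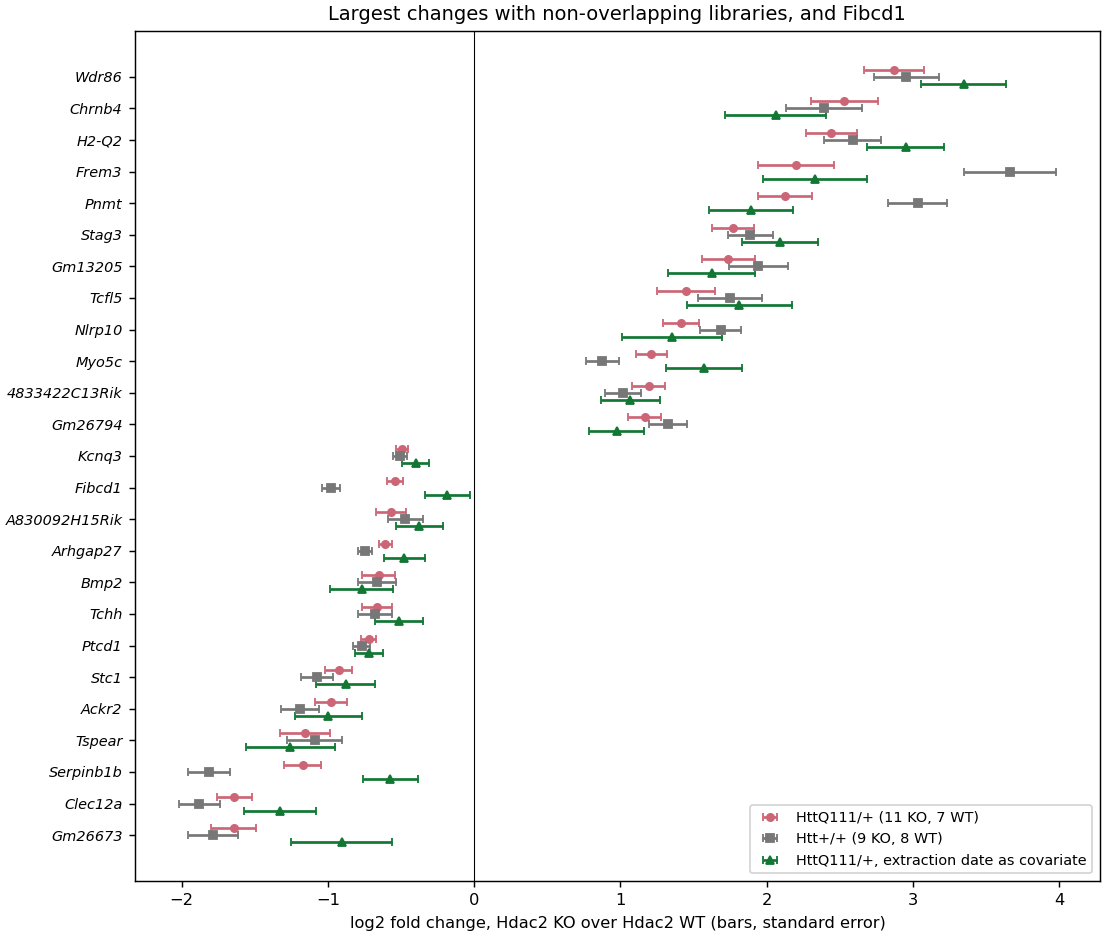
Log2 fold changes of Hdac2 KO over WT (horizontal axis; bars, SE) for the 24 largest changes with non-overlapping libraries and Fibcd1, in HttQ111/+ striata, in Htt+/+ striata and in HttQ111/+ striata with extraction date as a covariate. All have 1 sign in the 3 estimates, and Fibcd1 lies at -0.54, -0.98 and -0.18.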

How the data were processed

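Paired reads of stranded mRNA libraries were aligned by the authors to GRCm38 with GSNAP and counted with bedtools multibamcov as unique alignments over each whole Ensembl gene interval, introns included. The deposited values are these counts, without normalization. Whether counting used strand is not given in the sources used here. In 6 HttQ111/+ females, Xist had 102834 to 182622 counts and the opposite Tsix 24 to 132, and 42.5% of the genes tested overlap another gene.

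From the 39109 entries, 6152 genes with a span up to 250 nt, 2 mitochondrial rRNA genes and 92 ERCC controls were removed. The span limit replaces the authors' own removal list, of which only part was at hand. All 35 libraries were fitted in 4 genotype groups with edgeR 4.0.16 (quasi-likelihood F test, TMM scaling) in R 4.3.3, with 9 surrogate variables from sva 3.50.0. Genes needed at least 6 counts in every library of 1 compared group. Log2 fold changes are adjusted for the surrogate variables, CPM values are not, and in 22 of the 2841 calls (0.774%) the unadjusted means go the other way. Differences had an adjusted p threshold of 0.05, and SE was derived from the same F test. The procedure was tested on simulated data.

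Named genes were Hdac1 to Hdac11, Htt and Ppp1r1b, the 12 largest rises and falls among genes past the threshold whose libraries did not overlap and whose average log2 CPM reached 1, up to 4 genes past the threshold per gene list by size of change, genes past the interaction test, and called genes within 250 kb of Ppp1r1b. The comparison, the 53 gene lists and this rule were chosen with earlier results of these data known. Alternatives covered covariates, a replicate block, libraries in the fit, scaling (TMM, DESeq2 size factors, upper quartile), DESeq2 1.42.0, filters and leaving out each library. Each mouse gave 1 library, so the spread is that between mice. Libraries held at least 52160372 counts, and genes near or under 1 CPM rest on few reads. Exon-level counts were not analysed here, and values of a few genes are not reported.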

Additional observations from a re-analysis of the deposited data

Results flagged for a closer look

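A level in 1 library lay far from the other 6 of the HttQ111/+ Hdac2 WT group, by Dixon's ratio, in 21 of 180 groups of 7 libraries examined, where chance gives about 1 in 20. In 17 of the 20 genes, and in the summed cortical markers, the library was WT replicate 7. Its summed cortical projection neuron markers were 504.4 CPM. It was lowest for Clec12a (4.628 CPM) and for Tac1 (232.5 CPM), the substance P precursor. It was highest for the receptors Npbwr1 (2.965 CPM), Sstr3 (9.717 CPM) and Sstr2 (20.8 CPM), for the channel genes Kcnt2 (29.29 CPM), Kcnj3 (63.75 CPM), Kcnab3 (12.22 CPM) and Gabra3 (91.3 CPM), and for the synaptic genes Doc2a (6.071 CPM), Homer2 (37.29 CPM), Camk2a (1101 CPM) and Rph3a (370.4 CPM). It was also highest for Tmem132d (16.99 CPM), Psmb10 (13.84 CPM), Faah (40.03 CPM) and Sirt3 (39.53 CPM). In the other genes the library apart was WT replicate 4 for Pcdhb7 (18.87 CPM), WT replicate 1 for Peg10 (43.18 CPM) and WT replicate 3 for Crebbp (76.44 CPM). The part of cortical RNA in these levels was not tested.

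The effect of Hdac2 KO on Fibcd1 differed between HttQ111/+ and Htt+/+ striata by 0.427 on the log2 scale in the test of the interaction, the fall being smaller in HttQ111/+ striata.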

How the results depend on the processing

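The count of genes past the threshold in HttQ111/+ striata (2841) was 331 with extraction date as a covariate (210 risen and 121 fallen), 1854 with a replicate block (958 fallen), 1595 with only HttQ111/+ libraries and sex (792 and 803), 1711 in males (842 and 869), 601 in the mice with V identifiers (317 and 284) and 1505 in those with A and Z identifiers (770 and 735). Only HttQ111/+ libraries with surrogate variables gave 3205 genes, so the 1595 differ from it in the covariates as well. Date follows the genotype closely, so the date fit rests on few libraries that share a date. Without covariates 2311 genes passed, and 1771 of them were among the 2841. Leaving out each of the 18 libraries gave 2442 to 3607 genes (1146 to 1649 risen and 1295 to 1958 fallen). The count in Htt+/+ striata was 822 with date. The interaction gave 0 genes without covariates, 0 with sex, 0 with date and 3 in DESeq2. Of the 166 genes named by the rule, 150 kept their sign in all settings, 137 passed with every library left out, 121 passed without covariates and 38 with date. Over the 18 fits with a library left out, Hdac5 passed in 4, Cdh23 in 5, Col6a6 in 7, Htr4 in 8, Per2 and Med1 in 10 and Acat2 in 11, and the remaining genes in at least 12.

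Replicate numbers in the labels did not pair the libraries. The deviations of same-numbered libraries correlated at 0.003 to 0.139 over 7 pairs, 2 of them over 0.1, and no library correlated best with its own number, so the loss under the block is not read as a weaker effect.

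Log2 fold changes with the other sign were as follows. Hdac5 had 0.026 without covariates, 0.035 with sex, 0.027 with sex and ID series, 0.035 with only HttQ111/+ libraries and sex, 0.008 in males, 0.013 in the V series and 0.075 in A and Z. Itgam had 0.032, 0.048, 0.041, 0.04, 0.048 (V) and 0.05 (A and Z), and 0.396 with date. Sstr3 had -0.555, -0.279, -0.23, -0.217 and -0.787 (A and Z), with -0.767 with date and -0.184 with the replicate block, and Sstr2 had -0.449, -0.274, -0.233, -0.184, -0.635, -0.482 and -0.073 in the same order. Doc2a had -0.131 without covariates, -0.016 with sex, -0.503 with date and -0.376 in A and Z. With date, Dsc2 had -0.049, Col6a6 -0.053, Rgs16 -0.152, Faah -0.098, Fcrls 0.58, Grm5 0.045 and Slc1a2 0.077. In the V series Fcrls had 0.005, Ikzf2 -0.105, Ndufs7 0.03 and Ndufs3 0.02, and in A and Z Med1 had 0.008. The cause of these changes was not tested.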
